A study of Mus musculus with 9 samples.

Results

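The genes described here are the cytosolic heat shock genes, the chaperones of the cytosol and nucleus that bind unfolded proteins, their closest helpers, and the transcription factor that controls them. They were chosen by name: Hspa1a, Hspa1b, Hspa8, Hspa4, Hsph1, Hsp90aa1, Hsp90ab1, Dnajb1, Bag3 and Hsf1. The choice was made with earlier results of these data known, so the shares of these genes given below are descriptive. All 10 were found among the 54432 genes of the table, and 9 of them were among the 12637 genes with enough counts to be tested, the exception being Hspa1a.

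The study asked how macrophages take up and handle triglyceride-rich lipid particles. Cells of a mouse macrophage-like line, grown from a virus-induced leukaemia, were harvested after 6 h in 3 groups of 3 RNA-seq libraries each. CTRL cells received no particles, VLDLsep cells received emulsion particles of the size of very low-density lipoproteins at 1 mM, and CHYLsep cells received emulsion particles of the size of chylomicrons, at 1 mM per the labels and methods and at a lower dose per a caption in the study's supplement, so an equal dose is not certain. Per the methods, the samples of a condition within an experiment were pooled before sequencing, so the p-values below measure the spread between these pooled libraries of a single cell line. The depth was even, with 22393893 to 22856792 estimated counts per library.

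As background, chaperones of the HSP70 family grip exposed greasy stretches of unfolded proteins and let them go again in a cycle driven by ATP. J-domain proteins such as Dnajb1 bring the client and start the cycle, nucleotide exchange factors such as Hsph1 and Bag3 end it, and HSP90 takes over clients that are nearly folded, many of them kinases and receptors of immune cells. When unfolded proteins build up, in macrophages as in other cells, the factor HSF1 is released from its chaperones and switches on many of these genes.

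The libraries carried the markers of the line: 10 of 10 macrophage markers had counts in every library, the most abundant being Lyz2 with a mean of 2309 cpm (the counts of a gene scaled to the same total for every library). The 4 epithelial markers had no count in any library, and the summed markers reached no more than 2.51 cpm for fibroblasts, 0.35 cpm for T cells, 0.263 cpm for B cells and 2.01 cpm for endothelial cells. Among fibroblast markers Pdgfra led with a mean of 1.86 cpm, and 2 of 5 had no count. Some library features moved with the groups. The summed macrophage markers were at 7153 to 7357 cpm in CTRL, 5955 to 6269 cpm in VLDLsep and 6167 to 6486 cpm in CHYLsep. These sums use the plain totals, but most single markers that passed by limma fell as well. With VLDLsep the log2 fold change by limma was -0.83 for Fcgr1 (adjusted p = 8e-05) and -0.54 for Cd14 (adjusted p = 3.7e-05). Ptprc, Spi1, Itgam and Lyz2 also fell at an adjusted p under 0.05, and only Cd68 rose, at 0.17 (adjusted p = 0.028). With CHYLsep, Cd14, Fcgr1 and Ptprc fell and none rose at that threshold. Mitochondrially encoded genes took 5.59 to 5.98% of counts in CTRL, 6.22 to 6.83% in VLDLsep and 6.58 to 6.9% in CHYLsep. The part of these shifts in the results below was not tested.

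The replicate 3 libraries stood apart from the others in each group. Within a group, replicates 1 and 2 had correlations of log2 values across genes of 0.9971 to 0.9974, and pairs with replicate 3 had 0.9942 to 0.9951 (genes are not independent replicates). No pair of libraries agreed within sampling noise, so none was counted as a duplicate. Counts of calls are also given without these libraries where they differ.

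Exposure to VLDLsep particles was followed by higher levels of most of these genes. By limma-voom, 7 of the 9 tested genes rose and none fell. The largest difference was in Hspa1b, the stress-inducible HSP70, at 6.26-fold (95% confidence interval 4.5 to 8.71, n = 3 a group), followed by the exchange factor Hsph1 at 2.63-fold (2.33 to 2.96). The genes that did not pass were Hspa4 and Hsf1. Because the libraries hold RNA of whole cultures, fewer cells of a type and less RNA per cell cannot be told apart, and neither can their opposites.

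The count of 7 of 9 (77.8%) stands against a background in which 35.6% of the 12637 tested genes were called in either direction at an adjusted p under 0.05 and 17.8% were called higher. In the same 7 genes, all 3 VLDLsep libraries lay above all 3 CTRL libraries, which held for 15.5% of all tested genes. This comparison of libraries uses plain cpm, by which 1962 of all tested genes lay higher and 4208 lower. The median log2 fold change was 0.7 over the 9 genes and 0 over all tested genes. Over all genes 2244 were called higher and 2256 lower; scaled by library size alone, the split was 1507 higher and 3312 lower, and the members still gave 7 higher and 0 lower. Without the replicate 3 libraries the members' count was again 7, while the count over all genes went from 4500 to 5380 of 12386. With the replicate number as a block it was 6058 of 12637, and 8 members were called.

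CHYLsep particles were also followed by higher levels of most of these genes. By limma-voom, 7 of the 9 tested genes rose relative to CTRL and none fell. Hspa1b was 3.24-fold higher (95% confidence interval 2.28 to 4.6, n = 3 a group) and Hsph1 2.1-fold higher (1.86 to 2.37). Hspa4 and Hsf1 did not pass here either. This comparison uses the same CTRL libraries as the one with VLDLsep, so the comparisons are not independent of each other.

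Here 25.7% of the tested genes were called in either direction and 12.7% were called higher, against 77.8% of the tested members. The 7 genes also had all CHYLsep libraries above all CTRL libraries, as had 13.3% of all tested genes. In plain cpm, 1683 of all tested genes lay higher in this way and 3737 lower. The median log2 fold change was 0.47 over the 9 genes and 0.001 over all tested genes. Over all genes 1610 were called higher and 1639 lower, and with scaling by library size alone 1068 higher and 2514 lower; the members gave 7 higher and 0 lower under that scaling. Without the replicate 3 libraries the members' count was also 7, while that over all genes went from 3249 to 4182 of 12386.

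Hspa1a and Hspa1b encode the stress-inducible HSP70 from neighbouring single-exon genes on chromosome 17; positions here are those of GENCODE M21 on GRCm38. The Hspa1b level (ENSMUSG00000090877, chr17:34956436-34959238, minus strand) was 1.06, 1.32 and 1.18 cpm in the CTRL libraries. With VLDLsep it was 8.08, 6.8 and 6.38 cpm, and with CHYLsep 4.49, 3.01 and 3.64 cpm. The groups did not overlap, and every VLDLsep library was also above every CHYLsep library. The estimated counts behind these values were small, 24 to 29.9 per library in CTRL and 145.6 to 181 in VLDLsep. The log2 fold change against CTRL was 2.65 (SE 0.22, adjusted p = 8.5e-06) for VLDLsep and 1.69 (SE 0.23, adjusted p = 0.00041) for CHYLsep, both by limma. With the 12637 genes ordered from the most positive log2 fold change to the most negative, Hspa1b was number 49 in the VLDLsep comparison and number 109 in that with CHYLsep.

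Hspa1a (ENSMUSG00000091971, chr17:34969190-34972156, minus strand) was nearly without counts. The highest estimated count in any library was 1.2, and 7 of the values were exactly 0. A count of 0 allows up to about 3 counts, or 0.133 cpm at the median depth, for counting error alone, so no fold change is given. The split between the genes is uncertain, because 67.6% of the 31-base words of the Hspa1b transcript also occur in Hspa1a, and Hspa1a is overlapped on the other strand by Gm20481, whose reads cannot be told apart without strand. Summed over both genes, the log2 fold change was 2.63 (adjusted p = 8.7e-06) for VLDLsep and 1.68 (adjusted p = 0.00044) for CHYLsep by limma. The call of this sum does not depend on how counts were divided between them, but the sum does not show which gene rose.

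Hspa8 is the constitutive HSP70 that does the housekeeping share of folding. Its level (ENSMUSG00000015656, chr9:40800984-40810087, plus strand) was 1789, 1752 and 1536 cpm in CTRL, 2841, 2645 and 2790 cpm in VLDLsep, and 2286, 2297 and 2504 cpm in CHYLsep. The 3 groups were fully separated, with VLDLsep on top. The log2 fold change was 0.8 (SE 0.06, adjusted p = 8e-06) with VLDLsep and 0.56 (SE 0.06, adjusted p = 0.00014) with CHYLsep by limma. Its transcript shares 77.2% of its 31-base words with other genes, 74.3% with Gm15459, so reads could have been divided among them, and it holds the small RNA genes Snord14c, Snord14d and Snord14e.

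Hsph1 and Hspa4 belong to the HSP110 branch, which resets HSP70 by exchanging its nucleotide. Hsph1 (ENSMUSG00000029657, chr5:149614287-149636376, minus strand) was at 111, 109 and 88.5 cpm in CTRL, at 246, 249 and 261 cpm in VLDLsep, and at 209, 190 and 211 cpm in CHYLsep. No library of one group reached into another. Here the log2 fold change was 1.39 (SE 0.08, adjusted p = 7.5e-07) with VLDLsep and 1.07 (SE 0.08, adjusted p = 6.6e-06) with CHYLsep by limma, and none of its 31-base words occurs in another gene.

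Hspa4 (ENSMUSG00000020361, chr11:53259814-53300457, minus strand) was at 429, 439 and 434 cpm in CTRL, 426, 451 and 449 cpm in VLDLsep, and 454, 427 and 434 cpm in CHYLsep. These libraries overlapped throughout. Its log2 fold change was 0.12 (95% confidence interval 0.02 to 0.22, adjusted p = 0.067) with VLDLsep and 0.09 (-0.01 to 0.19, adjusted p = 0.17) with CHYLsep by limma. Fold changes use TMM-scaled libraries and cpm the plain totals, which is why nearly equal cpm can go with a fold change above 0. With the replicate number as a block, the VLDLsep value was still 0.12 but passed, at an adjusted p = 0.021 by limma; it also passed with no filter on low counts (adjusted p = 0.049) and without VLDLsep replicate 1 (0.15, adjusted p = 0.049). Over 21 alternatives its adjusted p ran from 0.021 to 0.69.

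**Figure D1:**
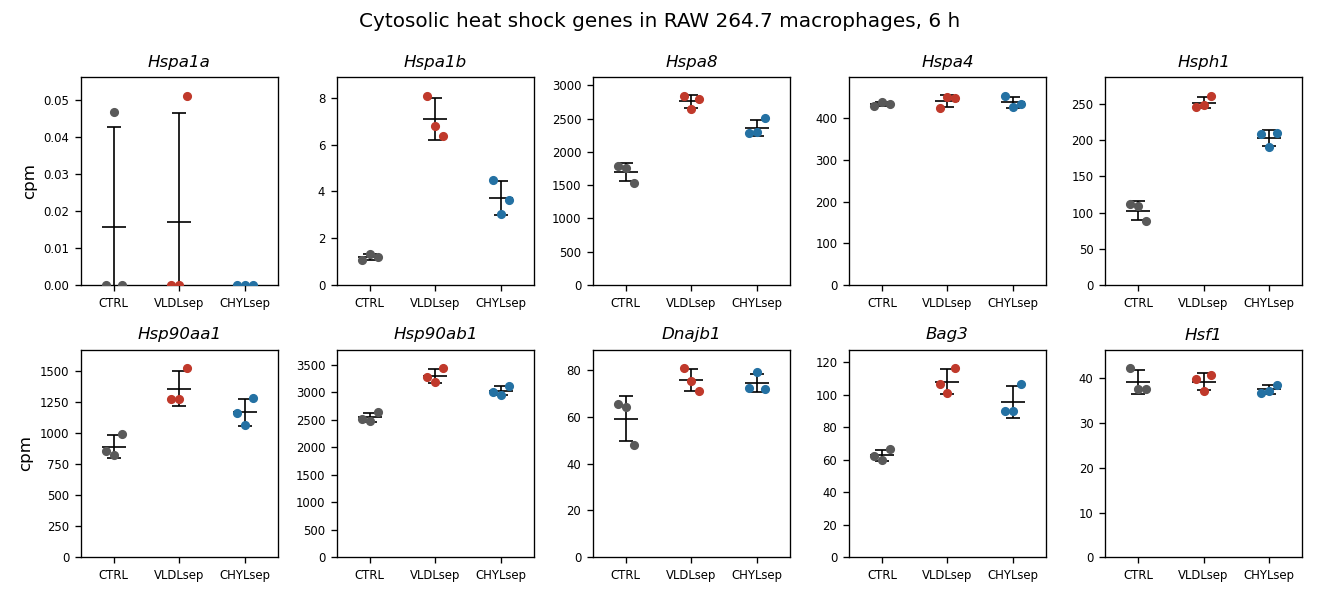
Level of each of the 10 genes in cpm (vertical axes, each starting at 0) in the 3 libraries of CTRL, VLDLsep and CHYLsep; points are libraries, and bars give the mean and 1 SD. The particle libraries lie above all CTRL libraries in 7 genes and overlap with them in Hspa1a, Hspa4 and Hsf1.

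Hsp90aa1 and Hsp90ab1 encode the cytosolic HSP90 proteins, the first more inducible and the second more constitutive. Hsp90aa1 (ENSMUSG00000021270, chr12:110690605-110702728, minus strand) was at 854, 827 and 997 cpm in CTRL, 1277, 1279 and 1523 cpm in VLDLsep, and 1161, 1068 and 1285 cpm in CHYLsep. Both particle groups lay above CTRL, and they overlapped with each other. The estimate on the log2 scale was 0.7 (SE 0.11, adjusted p = 0.00048) with VLDLsep and 0.47 (SE 0.11, adjusted p = 0.0077) with CHYLsep by limma. Of its 31-base words 62.9% occur in other genes, 57% in Gm12346, so its counts too could have been divided.

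Hsp90ab1 (ENSMUSG00000023944, chr17:45567775-45573271, minus strand) was at 2517, 2480 and 2639 cpm in CTRL, 3276, 3184 and 3435 cpm in VLDLsep, and 3008, 2958 and 3114 cpm in CHYLsep. The groups were separated, CTRL lowest and VLDLsep highest. The log2 fold change by limma was 0.47 (SE 0.06, adjusted p = 1e-04) with VLDLsep and 0.33 (SE 0.06, adjusted p = 0.0015) with CHYLsep.

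Dnajb1, the J-domain partner that delivers clients to HSP70, and Bag3, an exchange factor that also links HSP70 to selective autophagy, rose as well. Dnajb1 (ENSMUSG00000005483, chr8:83608193-83612653, plus strand) was at 65.4, 64 and 48 cpm in CTRL, 80.6, 75.2 and 71 cpm in VLDLsep, and 72.3, 78.8 and 72 cpm in CHYLsep. The particle groups overlapped with each other and not with CTRL, whose replicate 3 was the lowest library. Against CTRL, the log2 fold change was 0.46 (SE 0.1, adjusted p = 0.0041) with VLDLsep and 0.42 (SE 0.1, adjusted p = 0.0092) with CHYLsep by limma. Bag3 (ENSMUSG00000030847, chr7:128523616-128546981, plus strand) was at 62.2, 60 and 66.5 cpm in CTRL, 107, 101 and 116 cpm in VLDLsep, and 90, 90 and 107 cpm in CHYLsep. Its particle libraries were all above CTRL and overlapped with each other. The annotation places 2610306O10Rik across part of Bag3, so some reads could belong to either. The log2 fold change of Bag3 was 0.87 (SE 0.09, adjusted p = 4.2e-05) with VLDLsep and 0.68 (SE 0.09, adjusted p = 0.00037) with CHYLsep by limma.

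Hsf1, the transcription factor, did not pass the test in either comparison. Hsf1 (ENSMUSG00000022556, chr15:76477422-76501913, plus strand) was at 42.2, 37.6 and 37.6 cpm in CTRL, 39.8, 37.2 and 40.8 cpm in VLDLsep, and 36.8, 37.2 and 38.6 cpm in CHYLsep. All groups overlapped. The log2 fold change was 0.1 (95% confidence interval -0.05 to 0.24, adjusted p = 0.29) with VLDLsep and 0.02 (-0.13 to 0.17, adjusted p = 0.86) with CHYLsep by limma. The CHYLsep value turned to -0.06 with scaling by library size alone, to -0.01 without CTRL replicate 2 or CHYLsep replicate 3, and to -0.02 without the replicate 3 libraries. Transcript levels say nothing of the activity of the protein, which was not measured here.

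Together the 10 genes took 0.577 to 0.587% of all counts in CTRL, 0.803 to 0.869% in VLDLsep and 0.715 to 0.777% in CHYLsep. The groups were separated. As a mean, their summed level was 5830 ± 53.4 cpm in CTRL, 8341 ± 334 cpm in VLDLsep and 7414 ± 320 cpm in CHYLsep (SD, n = 3).

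Between the particles, the estimates for VLDLsep were higher than for CHYLsep in 9 of the 9 tested genes, as in 49.5% of all tested genes, but no difference passed the test in the main fit. By limma-voom 0 of 9 members and 0 of 12637 genes (0%) were called, and 4 members had an unadjusted p under 0.05, as had 813 genes (6.43%). Hspa1b, Hspa8, Hsph1 and Hsp90ab1 had all VLDLsep libraries above all CHYLsep libraries, a pattern found in 4.37% of the tested genes. In plain cpm, 552 of all tested genes lay higher in this way and 857 lower. The log2 difference was 0.95 for Hspa1b (95% confidence interval 0.61 to 1.3, adjusted p = 0.5), 0.24 for Hspa8 (0.09 to 0.38, adjusted p = 0.51) and 0.33 for Hsph1 (0.15 to 0.5, adjusted p = 0.51) by limma. For Hsp90ab1 it was 0.14 (0.01 to 0.26), for Hsp90aa1 0.23 (-0.01 to 0.46) and for Bag3 0.19 (0 to 0.39). The intervals for Hspa4 (-0.08 to 0.13), Dnajb1 (-0.17 to 0.25) and Hsf1 (-0.07 to 0.22) included 0, and the Dnajb1 difference turned to -0.01 without VLDLsep replicate 1.

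Calls in this comparison differed with the tool, with the replicate number as a block and without the replicate 3 libraries. Over all 12637 tested genes edgeR called 0 (812 at an unadjusted p under 0.05), with 0 members (4 unadjusted). DESeq2 called 24 (650), and of the members Hsph1 alone (log2 difference 0.33, adjusted p = 0.036). Without the replicate 3 libraries limma called 257 of 12386 genes and 5 of 9 members. Among the members these were Hspa1b (1.02, adjusted p = 0.011), Hspa8 (0.27, adjusted p = 0.004) and Hsph1 (0.33, adjusted p = 0.0038). Also called were Hsp90aa1 (0.21, adjusted p = 0.021) and Bag3 (0.22, adjusted p = 0.043). The highest adjusted p over the alternatives was 1 for each of these 5 members.

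**Figure D2:**
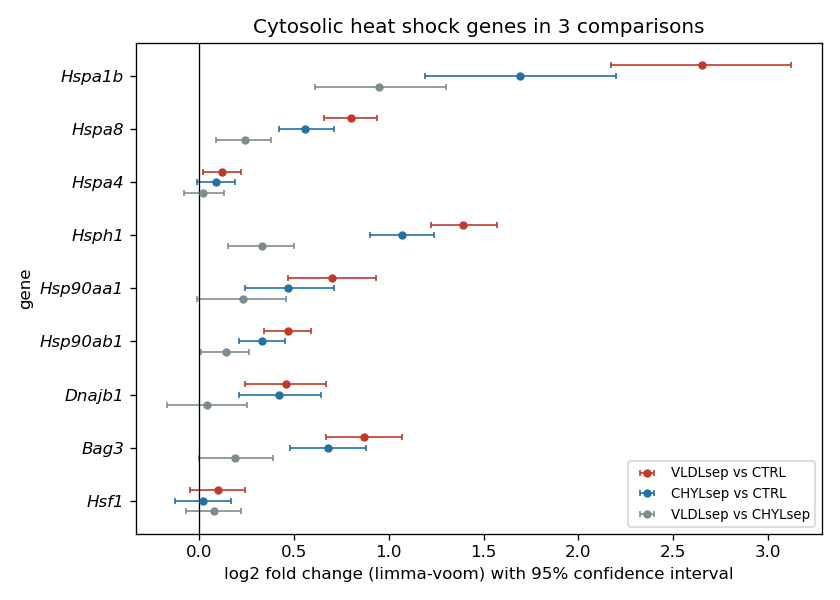
Log2 fold change (horizontal axis) of the 9 tested genes in each of the 3 comparisons, with points for the limma-voom estimate and bars for the 95% confidence interval. The estimates against CTRL run from 0.1 to 2.65 for VLDLsep and from 0.02 to 1.69 for CHYLsep.

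To compare levels between genes, cpm were divided by the length of the longest annotated transcript in kilobases. On this scale the CTRL level was highest for Hsp90ab1 at 1010 ± 33 cpm per kb, then Hspa8 at 707 ± 57.1, Hsp90aa1 at 272 ± 27.8 and Hspa4 at 94 ± 1.05 (SD, n = 3). Next came Hsph1 at 27 ± 3.28, Bag3 at 24.5 ± 1.31, Dnajb1 at 19.7 ± 3.23 and Hsf1 at 18.6 ± 1.25 cpm per kb. Hspa1b followed at 0.424 ± 0.047 and Hspa1a was last. Hsph1 and Bag3 overlapped in their libraries, as did Dnajb1 and Hsf1; the other neighbours were apart. With each particle the order was the same and no neighbours overlapped; with VLDLsep, Hsph1 was at 66.3 ± 2.13, Bag3 at 42.1 ± 3.03, Dnajb1 at 25.2 ± 1.6 and Hsf1 at 18.6 ± 0.885 cpm per kb. Hspa1b reached 2.53 ± 0.316 cpm per kb with VLDLsep and 1.33 ± 0.265 with CHYLsep, still the lowest of the tested members.

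The promoters of the members, whether or not these rose, were searched for the inverted repeats that HSF1 is known to bind. RefSeq promoters (build GRCm38.p6, windows of 300 bases) were at hand for 6 of the 10 genes, and not for Hspa8, Hsp90aa1, Hsp90ab1 and Hsf1. Each window was read as 250 bases before to 50 after the start of its entry, as for Hspa1a. That start can differ from the GENCODE M21 gene start, as it does for Hsph1 and Bag3. The pairs searched were GAANNTTC and TTCNNGAA, each its own reverse complement, so that both strands are covered, and the runs GAANNTTCNNGAA and TTCNNGAANNTTC, which contain overlapping pairs. Of 32851 promoters, 7.86% held GAANNTTC, 8.52% held TTCNNGAA and 15.1% held either pair, while 0.603% held either run. Hspa1a and Hspa1b each held 1 pair starting 104 bases before the gene start, and Bag3 held 1 pair past its start. Hsph1 held 3 pairs with 1 run. In each of its 2 entries, 1 pair lay before the start of the entry and the run lay past it. Hspa4 and Dnajb1 held none, which says only that these letters are not in their windows. A match is a description of the sequence and not a binding site. The promoters with a match are shown, with the matching letters in capitals, for Hspa1a (chr17:34972107-34972406, minus strand), Hspa1b (chr17:34959189-34959488, minus strand), Hsph1 (chr5:149636266-149636565, minus strand, 1 of its 2 entries) and Bag3 (chr7:128523333-128523632, plus strand). Hspa1a and Hspa1b differ at 4 of the 300 positions (98.7% the same).
Hspa1a: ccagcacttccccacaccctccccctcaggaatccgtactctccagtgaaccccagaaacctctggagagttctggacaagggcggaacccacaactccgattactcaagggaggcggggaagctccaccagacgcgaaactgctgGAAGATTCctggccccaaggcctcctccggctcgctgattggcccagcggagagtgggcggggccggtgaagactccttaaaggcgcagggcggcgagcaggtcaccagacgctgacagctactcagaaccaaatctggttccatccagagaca
Hspa1b: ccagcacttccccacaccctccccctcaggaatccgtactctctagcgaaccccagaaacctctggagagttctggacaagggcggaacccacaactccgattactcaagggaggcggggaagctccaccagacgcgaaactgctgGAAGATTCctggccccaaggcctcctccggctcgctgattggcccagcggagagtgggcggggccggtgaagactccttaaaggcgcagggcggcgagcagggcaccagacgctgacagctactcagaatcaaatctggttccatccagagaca
Hsph1: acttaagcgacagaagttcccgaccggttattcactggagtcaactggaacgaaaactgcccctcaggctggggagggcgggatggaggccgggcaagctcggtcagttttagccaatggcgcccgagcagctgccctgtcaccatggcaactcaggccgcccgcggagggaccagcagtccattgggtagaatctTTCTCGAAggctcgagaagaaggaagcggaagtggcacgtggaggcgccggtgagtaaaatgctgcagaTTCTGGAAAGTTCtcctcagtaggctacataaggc
Bag3: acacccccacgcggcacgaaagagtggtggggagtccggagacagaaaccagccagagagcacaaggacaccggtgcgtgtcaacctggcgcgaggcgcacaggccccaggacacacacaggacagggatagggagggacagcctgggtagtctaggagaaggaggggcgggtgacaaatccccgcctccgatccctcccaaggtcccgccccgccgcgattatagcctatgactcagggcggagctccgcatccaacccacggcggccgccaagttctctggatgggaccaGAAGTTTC

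Other chaperone genes were taken from fixed lists, each gene counted once: 90 genes, of which 78 were tested. These lists too were chosen with earlier results of these data known. With VLDLsep 40 rose and 5 fell, and with CHYLsep 25 rose and 4 fell, by limma-voom against CTRL. The share called higher was 51.3% and 32.1%, against 17.8% and 12.7% of all tested genes, the shares to set beside each list that follows. With scaling by library size alone 30 rose and 8 fell, and 15 rose and 8 fell; without the replicate 3 libraries 42 rose and 5 fell, and 38 rose and 5 fell. Among 15 tested genes of 18 known to rise on heat shock, 15 rose with VLDLsep and 12 with CHYLsep, with median log2 fold changes of 0.66 and 0.47. Most of these genes, Dnaja1, Chordc1 and Hspd1 among them, also stand in the lists that follow, so the lists are not separate evidence. With scaling by library size alone the counts were 14 and 7, and without the replicate 3 libraries 14 and 13. The log2 fold change of Dedd2 was 1.07 (adjusted p = 0.00097) with VLDLsep and 0.81 (adjusted p = 0.0084) with CHYLsep by limma. Zfand2a, a zinc finger gene induced by arsenite, was at 1.03 (adjusted p = 0.013) with VLDLsep, a call lost without CTRL replicate 1 or CTRL replicate 2 (adjusted p from 2.9e-09 to 0.057 over 21 alternatives), and at 0.68 (adjusted p = 0.093) with CHYLsep, which passed without CTRL replicate 3 and without the replicate 3 libraries (0.73, adjusted p = 6.6e-07, the lowest of a range up to 0.27).

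Of the J-domain genes of cytosol and nucleus, 10 of 11 were tested; 7 rose and 2 fell with VLDLsep, and 4 rose and 2 fell with CHYLsep. With scaling by library size alone 5 and 4 rose. Dnaja1 went from 237, 251 and 195 cpm in CTRL to 353, 353 and 374 cpm in VLDLsep and 334, 318 and 337 cpm in CHYLsep. Both particle groups were above CTRL. Its log2 fold change was 0.76 (adjusted p = 3.4e-05) and 0.62 (adjusted p = 0.00022) by limma, and that of Dnajb2 0.97 (adjusted p = 7.6e-05) and 0.7 (adjusted p = 0.0011). Dnajb5 fell, with log2 fold changes of -0.67 (adjusted p = 0.008) and -0.73 (adjusted p = 0.0076). Dnajb4 was at 0.69 (adjusted p = 0.02) and 0.5 (adjusted p = 0.1); its VLDLsep call was lost without CTRL replicate 1, CTRL replicate 2 or VLDLsep replicate 1 (adjusted p from 0.0055 to 0.077 over the alternatives).

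Of the 6 other cytosolic HSP70 family genes, 2 rose and 1 fell in each comparison with CTRL, and their median log2 fold changes were 0 and 0.02. Hspa12a, a distant relative with at most 41 counts in a library, was at 1.47 (adjusted p = 0.0037) with VLDLsep and 1.23 (adjusted p = 0.015) with CHYLsep by limma. Hspa4l, another HSP110 gene, was at 0.69 (adjusted p = 0.002) and 0.47 (adjusted p = 0.025); the CHYLsep call was lost with scaling by library size alone (0.39, adjusted p = 0.067) and without CTRL replicate 1, CTRL replicate 3, CHYLsep replicate 1 or CHYLsep replicate 2 (adjusted p from 0.00047 to 0.077 over the alternatives). Hspa14 fell, at -0.49 (adjusted p = 8.9e-05) and -0.34 (adjusted p = 0.0015). In the list of exchange factors and BAG genes, 1 of 6 (16.7%) rose and 0 fell in each comparison with CTRL, near the 17.8% and 12.7% of all tested genes that rose. With scaling by library size alone 1 rose with each particle, and 3 fell with VLDLsep and 2 with CHYLsep; with the replicate number as a block 2 rose and 1 fell with VLDLsep. The gene called in the main fit was Bag2, at 0.7 (adjusted p = 6.2e-05) and 0.5 (adjusted p = 0.0011).

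Of 20 tested co-chaperones of HSP90, 11 rose and 2 fell with VLDLsep, and 9 rose and 1 fell with CHYLsep; with scaling by library size alone 10 rose and 2 fell, and 5 rose and 3 fell, and without the replicate 3 libraries 12 rose and 2 fell with each particle. Chordc1 was at 0.66 (adjusted p = 3.2e-05) and 0.53 (adjusted p = 0.00022). Cacybp was at 0.58 (adjusted p = 1.2e-05) and 0.45 (adjusted p = 0.00011), and St13, which bridges HSP70 and HSP90, at 0.53 (adjusted p = 0.00012) and 0.43 (adjusted p = 0.00071), all by limma. Fnip2 was at 0.71 (adjusted p = 0.029) and 0.55 (adjusted p = 0.096). Its VLDLsep call was lost with DESeq2 and without CTRL replicate 1, CTRL replicate 2, VLDLsep replicate 1 or VLDLsep replicate 3 (adjusted p from 3.7e-09 to 0.11), and its CHYLsep value passed without CTRL replicate 3 and without the replicate 3 libraries (0.68, adjusted p = 7.8e-08, the lowest of a range up to 0.3).

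TRiC, the ring-shaped chaperonin that folds actin and tubulin, had 6 of 8 subunits higher with VLDLsep and 0 of 8 with CHYLsep, where 6 had an unadjusted p under 0.05 (over all tested genes, 4672 of 12637 had), edgeR called 0 and DESeq2 called 2. Between the particles limma, edgeR and DESeq2 called 0 of 8, and 0 had an unadjusted p under 0.05 with limma. Without the replicate 3 libraries 8 of 8 were called in each comparison with CTRL and 0 of 8 between the particles. Against CTRL, scaling by library size alone gave 3 and 0 calls, upper-quartile factors 6 and 2, and the replicate number as a block 8 with VLDLsep. Cct3 was at 0.28 (adjusted p = 0.01) with VLDLsep and 0.21 (adjusted p = 0.0501) with CHYLsep, where it passed in 10 of 21 alternatives, and Cct4 at 0.25 (adjusted p = 0.011) and 0.17 (adjusted p = 0.077) by limma. Cct7 was at 0.29 (adjusted p = 0.029) and 0.21 (adjusted p = 0.12), and Cct5 at 0.25 (adjusted p = 0.039) and 0.18 (adjusted p = 0.14). The VLDLsep calls of Cct7 and Cct5 were lost with scaling by library size alone (adjusted p = 0.075 and 0.12, of ranges from 2.1e-05 to 0.1 and from 9.8e-05 to 0.15) and when single libraries were left out, for Cct7 CTRL replicate 1, CTRL replicate 2 or VLDLsep replicate 3 and for Cct5 these, VLDLsep replicate 1, CHYLsep replicate 1 or CHYLsep replicate 2. In each comparison 0 of 6 prefoldin genes passed with limma, edgeR or DESeq2; 1 of 6 had an unadjusted p under 0.05 in each comparison with CTRL, a smaller share than the 5645 and 4672 of all 12637, and 0 between the particles. With the replicate number as a block, 2 of 6 passed with VLDLsep. Pfdn5, the most abundant, was at 0.11 against CTRL with each particle, and passed under that block with VLDLsep (adjusted p = 0.031, of a range up to 0.84). Of 8 small heat shock genes only Hspb6 was tested, and at 0.01 and -0.09 it did not pass; the VLDLsep value was -0.09 with scaling by library size alone, -0.02 without CTRL replicate 2, and -0.08 and -0.01 without VLDLsep replicates 1 and 2.

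Among the heat shock factors and their regulators, 3 of 6 genes were tested and 1 rose. Hsf2 went from 18.4, 19.5 and 17.6 cpm in CTRL to 26.5, 26.2 and 27.2 cpm in VLDLsep and 24.7, 19.9 and 23.1 cpm in CHYLsep. All particle libraries were above CTRL. Its log2 fold change was 0.62 (adjusted p = 0.00025) with VLDLsep and 0.36 (adjusted p = 0.011) with CHYLsep by limma.

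Of 10 mitochondrial chaperone genes, 5 rose with VLDLsep and 4 with CHYLsep, and 2 and 0 with scaling by library size alone; without the replicate 3 libraries 4 rose with each. Hspd1, the mitochondrial HSP60, was at 0.39 (adjusted p = 0.005) and 0.3 (adjusted p = 0.028), and Hspa9, the mitochondrial HSP70, at 0.33 (adjusted p = 0.0067) and 0.23 (adjusted p = 0.0492) by limma. Both CHYLsep calls were lost with scaling by library size alone (adjusted p = 0.058 and 0.12, of ranges from 0.00016 to 0.11 and from 0.00027 to 0.17) and without any of several single libraries, CTRL replicate 1, CTRL replicate 2 and CHYLsep replicates 1 and 3 for both. For Hspa9, CHYLsep replicate 2 and VLDLsep replicates 1 and 2 had the same effect, and its call held in 10 of 21 alternatives. Clpx was at 0.24 (adjusted p = 0.013) with VLDLsep, lost without CTRL replicate 1 or VLDLsep replicate 2 and with library size alone (adjusted p = 0.081, the highest of a range from 0.0015), and at 0.12 (adjusted p = 0.18) with CHYLsep. Grpel1 was at 0.2 (adjusted p = 0.0474) and 0.23 (adjusted p = 0.036), calls that held in 10 and 13 of 21 alternatives. Trap1, the mitochondrial HSP90, did not pass, at 0.07 (adjusted p = 0.49) and 0.05 (adjusted p = 0.67), and was at -0.02 and -0.03 with scaling by library size alone.

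In the endoplasmic reticulum, 2 of 3 genes rose with VLDLsep and 1 with CHYLsep, and 1 and 0 with scaling by library size alone; without the replicate 3 libraries 2 rose with each. Hsp90b1 was at 0.21 (adjusted p = 0.0037) with VLDLsep and 0.17 (adjusted p = 0.014) with CHYLsep by limma; the CHYLsep call was lost with library size alone (adjusted p = 0.12, the highest of a range from 0.0011) and without CTRL replicate 1, CTRL replicate 2 or CHYLsep replicate 1. Hspa5, the HSP70 of this compartment, was at 0.17 (adjusted p = 0.0496) and 0.13 (adjusted p = 0.14), and its VLDLsep call held in 11 of 21 alternatives; the CHYLsep value passed without the replicate 3 libraries (0.15, adjusted p = 0.016, of a range up to 0.61).

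Among the genes most like the sum of Hspa1a and Hspa1b across the 9 libraries, out of 9689 candidates, were Clcn7 (Pearson r 0.993), Edem2 (0.987), Camk2d (0.984) and Hyal1 (0.983), given as a description since the 9 libraries share 3 treatments. Hyal1 went from 7.64, 8.73 and 7.33 cpm in CTRL to 19.8, 17.2 and 17.5 cpm in VLDLsep and 14.6, 13 and 15.1 cpm in CHYLsep. As these genes were chosen for this likeness, no test is given.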

How the data were processed

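RNA-seq libraries of the macrophage line were analysed from the gene-level estimated counts that the authors deposited. Per the submitters' processing notes, reads were quantified with Salmon 0.14.1 on GRCm38.p6. The methods describe scaling by transcript length and library size; 58.3% of values above 10 were whole within 1e-06, which values multiplied by such factors would almost never be, so they were taken as not scaled. Counts were rounded for edgeR and DESeq2 alone.

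A gene was tested when its count exceeded 10 in 3 or more of the 9 libraries, with limma 3.58.1 (voom weights, TMM factors from edgeR 4.0.16, R 4.3.3) in 1 model of 3 groups, with Benjamini-Hochberg adjustment over all 12637 genes and calls at an adjusted p under 0.05. The script was tested on simulated data. Alternatives were DESeq2 1.42.0, edgeR's quasi-likelihood test, limma-trend, other scalings and filters, the Hspa1 sum, a replicate block, and libraries left out. Intervals and floors cover counting error or spread between libraries only.

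The members and lists were chosen with earlier results of these data known. From each list, up to 4 called genes with the largest absolute log2 fold change in either comparison with CTRL were named, or the most abundant gene where none was called, together with all members, the 5 genes most like the Hspa1 sum (mean of at least 5 cpm), and Hspa5, Hsp90b1, Hspa9, Hspd1 and Trap1. Some genes chosen by these rules are not reported here. Replicate numbers come from the labels. Deviations of same-numbered VLDLsep and CTRL libraries correlated at 0.14, 0.13 and 0.29, each above the set minimum of 0.1. These libraries were therefore taken as paired, but replicates 1 and 2 are hardly told apart. VLDLsep replicate 2 correlated at 0.12 with CTRL replicate 1 and at 0.13 with CTRL replicate 2. The main model holds no block, and the pairing enters only through the replicate block given as an alternative. Gene positions, lengths and shared words come from GENCODE M21 transcripts, promoters from RefSeq.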

Additional observations from a re-analysis of the deposited data

How the results depend on the processing

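In 21 alternatives, the 7 called members kept their direction and their call against CTRL with each particle. The members outside that count are Hspa4, Hsf1 and Hspa1a, the last of which was not tested in the main fit. With the replicate block, each comparison tested 12637 genes, 9 of them members, and VLDLsep against CTRL gave 6058 genes and 8 members. CHYLsep against CTRL gave 4949 genes (3249 without the block), 7 members and 8 of 8 TRiC subunits, and of the named genes Pfdn5 (0.11, adjusted p = 0.035), Dnajb4, Zfand2a, Fnip2, Hspa5, Cct3, Cct4, Cct5 and Cct7 gained the call; VLDLsep against CHYLsep gave 147 genes and 4 members, Hspa1b (0.95, adjusted p = 0.015), Hsph1 (0.33, adjusted p = 0.048), Hsp90aa1 (0.23, adjusted p = 0.015) and Hsp90ab1 (0.14, adjusted p = 0.048), and 0.95 (adjusted p = 0.015) for Hspa1a plus Hspa1b, by limma. In these last comparisons the numbers were not taken as paired: same-numbered correlations were 0.12, 0.068 and 0.34 for CHYLsep with CTRL and 0.029, 0.12 and 0.36 for VLDLsep with CHYLsep, and VLDLsep replicate 1 correlated best with CHYLsep replicate 2 (0.18). In VLDLsep against CTRL the block changed the call of Hspa4 and Pfdn5 and of no other named gene.

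In VLDLsep against CHYLsep, DESeq2 called 24 genes and 1 member. With libraries left out, the counts ranged from 0 to 257 genes and from 0 to 5 members, highest without the replicate 3 libraries; 1 gene was called without VLDLsep replicate 3 or CHYLsep replicate 2. Hspa1a plus Hspa1b ranged from 0.81 to 1.1 (1.02, adjusted p = 0.011, without replicate 3). The cause was not tested.

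Reversals concerned uncalled values. With scaling by library size alone, Hspb6 (VLDLsep) was at -0.09, Trap1 at -0.02 (VLDLsep) and -0.03 (CHYLsep), and Hsf1 (CHYLsep) at -0.06. With libraries left out, Hspb6 with VLDLsep ranged from -0.08 to 0.11, Hsf1 with CHYLsep from -0.02 to 0.07, and Dnajb1 between particles from -0.01 to 0.08. The causes were not tested. Hspa1a, with at most 1.2 counts, did not pass the count filter of the main fit. It was among the 10 members fitted with no filter on low counts. Whether depth or the division of shared reads sets its low count was not tested.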
